A study of Homo sapiens with 27 samples.

Results

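The 33 genes described here are established transcriptional targets of the tumour suppressor p53, out of 60619 gene identifiers in the deposited count tables. They were listed by name from general knowledge of the p53 response and not by their values, though with earlier results of these data known. All 33 were found in the tables. They were followed in 27 samples of REH, a human leukemia cell line (acute lymphoblastic, of B-cell precursors) with the ETV6/RUNX1 fusion, in 10 treatment groups harvested after 72 hours. The question was whether antisense oligonucleotides that changed many genes also raised a p53 or DNA damage response. Medium alone had 2 samples (replicates 1 and 2), and a non-targeting LNA GapmeR (NTC) had 3. Each of 4 long non-coding RNAs was targeted by 2 GapmeRs, at 10 µM and without a transfection reagent. Against lnc-NKX2-3-1 there were 2 samples of GapmeR1 and 3 of GapmeR2, against lnc-ASTN1-1 3 and 2, and each GapmeR to lnc-TIMM21-5 or lnc-RTN4R-1 had 3. NTC and medium together are the 5 controls, which all 8 GapmeR comparisons share. All groups came from 1 cell line with no second line, so the values describe REH cells alone.

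p53 is a transcription factor that is kept low in unstressed cells, mainly because MDM2 marks it for degradation and MDM4 blocks its activity. DNA damage kinases such as ATM and ATR loosen this hold, and p53 then binds response elements made of a pair of half-sites near its target genes. The targets include genes that stop the cell cycle, trigger apoptosis, repair DNA, limit oxidative damage and, through MDM2, PPM1D and CCNG1, end the response. A rise of CDKN1A together with MDM2 is the usual sign of an active p53 response.

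An LNA GapmeR is a short strand of DNA flanked by locked nucleic acids, and RNase H cuts RNA that pairs with it. The GapmeRs of the lncRNAs with the most changed genes and the NTC are shown because pairing with a target gene's own transcript would bear on that gene's count. They are written 5′ to 3′, with no base in capitals:
NTC: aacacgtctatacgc
lnc-NKX2-3-1 GapmeR1: tgctctgtgcggattg
lnc-NKX2-3-1 GapmeR2: ctgatttttagtagtg
lnc-RTN4R-1 GapmeR1: gcattcatgggttaag
lnc-RTN4R-1 GapmeR2: tgctgagacatctagg
The unspliced sequence of each of the 16024 genes searched was compared with the 9 GapmeRs for runs of at least 12 paired bases (hg38). No p53 target gene held such a run for either lnc-NKX2-3-1 or either lnc-RTN4R-1 GapmeR. Runs of that length were found for lnc-NKX2-3-1 GapmeR1 in 0.3% of all genes, for its GapmeR2 in 7.48%, for lnc-RTN4R-1 GapmeR1 in 1.24% and for its GapmeR2 in 1.55%. The search found 2 runs in p53 target genes, 1 for the NTC (0.125% of all genes held such a run) and 1 for lnc-TIMM21-5 GapmeR2 (4.6%), with the paired bases in capitals:
NTC, with POLH: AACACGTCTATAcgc
lnc-TIMM21-5 GapmeR2, with TIGAR: gTCACTTTAATTTTgc
The first pairs over 12 bases at chr6:43586998-43587009 (plus strand) and the second over 13 at chr12:4330278-4330290 (plus strand), both in an intron of the gene. Neither POLH, a DNA polymerase that copies past damaged bases, nor TIGAR, which limits glycolysis, passed the test in the comparison of the GapmeR that pairs with it.

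Total counts ran from 14627110 to 22750945 per sample. Each targeted lncRNA was lowest with its own GapmeRs, at group means of 0.12 and 0.12 CPM (counts scaled to the size of the library) against 0.76 in the controls for lnc-NKX2-3-1, 5.85 and 4.68 against 20.9 for lnc-RTN4R-1, 0.29 and 0.21 against 1.57 for lnc-TIMM21-5, and 10.2 and 13.2 against 25.3 for lnc-ASTN1-1. The first of these rests on 0 to 4 counts per treated sample. Of 9 B-cell precursor markers, 8 were high and VPREB1 was listed at 0. The T-cell and erythroid markers and EPCAM, KRT18 and COL1A2 stood at or near 0. MPO, a myeloid marker, was at 291 to 445 CPM with lnc-RTN4R-1 GapmeR2, at 162 to 194 with lnc-NKX2-3-1 GapmeR1 and at 79.4 to 150 in the other groups, while LYZ and CD14 stayed under 1 CPM and CSF1R lay between 0.339 and 2.59. COL1A1 was at 6.09 to 17.3 CPM. The part of these levels in the results below was not tested.

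In the controls, p53 target genes were transcribed at very different levels. Per kilobase of exon, MDM2, the ubiquitin ligase that limits p53, was highest at 65.1 CPM per kb, followed by CCNG1, a cyclin that helps MDM2 limit p53, at 50.3, and by CDKN1A, the p21 inhibitor of cyclin-dependent kinases, at 35.7. SESN2, a sestrin that restrains mTORC1, stood at 35.6 and TRIAP1, which protects cells from apoptosis, at 28.0. At the other end, CD82, a membrane tetraspanin, was at 0.578 CPM per kb, the death receptor gene TNFRSF10A at 0.167 and FAS, the CD95 death receptor, at 0.0606. The merged annotated exons of FAS cover 29313 bases and those of TNFRSF10A 2927, so the order of FAS and TNFRSF10A rests on exon length. FAS held 12 to 65 counts per sample and TNFRSF10A 3 to 35, so their values carry more counting error than those of MDM2, with 7175 to 15876. SPATA18 and EDA2R had at most 1 count in any sample and passed no count filter. The other 31 were tested in every comparison.

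Genes were called changed at an adjusted p under 0.05 from edgeR's quasi-likelihood test, adjusted over all genes tested. Per the study's methods, replicates were treated on separate days. The labels do not state that samples with the same replicate number share a day. A second fit therefore held the replicate number as a block, and its values are given where they change a call of p53 target genes, and as counts for the other gene lists.

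With lnc-NKX2-3-1 GapmeR1, which changed 17.6% of all genes tested, 4 of the 31 p53 target genes were called, 2 higher and 2 lower (7.41% and 10.2% of all genes). MDM2 and TRIAP1 rose, and DDB2 and FAS fell. CDKN1A was not called.

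MDM2 stood at 727 and 786 CPM in both samples with lnc-NKX2-3-1 GapmeR1, against 576 and 592 in medium and 496, 557 and 483 with NTC. Both treated samples were above all controls, and the highest of the other groups' samples reached 644.5 CPM. The log2 fold change was 0.49 (SE 0.0919, adjusted p = 0.00252, 1.41-fold), and the call was lost without treated replicate 2 (adjusted p = 0.0637). Each fit without 1 of these 2 samples leaves a lone treated sample, which is assumed to vary like the controls. CDKN1A was at 124.8 and 105 CPM, against 96.8 and 98.1 in medium and 103, 116 and 120 with NTC. The groups overlapped, and the log2 fold change was 0.11 (SE 0.099, adjusted p = 0.485).

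DDB2, which recognises UV-damaged DNA for nucleotide excision repair, was at 45.1 and 50.3 CPM with lnc-NKX2-3-1 GapmeR1, against 59.4 to 68.5 in the controls. Both samples were the lowest of all 27, and the log2 fold change was -0.45 (SE 0.0843, adjusted p = 0.00247). The call was lost without treated replicate 1 (adjusted p = 0.072). FAS was at 0.641 and 0.622 CPM, against 1.37 to 2.06 in the controls. These too were the lowest samples of all groups, at a log2 fold change of -1.47 (SE 0.28, adjusted p = 0.00286, 0.36-fold). TRIAP1 was at 48.5 and 47.2 CPM against 36.7 to 43.2, with a log2 fold change of 0.28 (SE 0.0866, adjusted p = 0.0383). That call was lost in 5 alternatives, among them NTC only as controls and the fit without either treated sample.

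DDB2 was the single p53 target gene with a full p53 consensus site in a RefSeq promoter window of 250 bases before to 50 after a gene start (GRCh38.p14). Promoter windows were found for 25 of the 33 genes, and 10 of 35116 windows of all genes (0.0285%) held a full site, taken as 2 half-sites with at most 13 bases between them on either strand. The half-sites are in capitals:
DDB2 site: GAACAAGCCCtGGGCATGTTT
It lies at chr11:47214979-47214999 (plus strand), in a non-coding stretch of an exon. Single half-sites were found in windows of PLK2, SESN1, FAS, DDB2, AEN and FDXR, and in 6.63% of all windows. The match is a description of letters and no evidence of binding.

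When the replicate number was held as a block, lnc-NKX2-3-1 GapmeR1 had 14 p53 target genes higher and 4 lower, where 36.4% of all genes were called (18.4% higher and 18% lower). CDKN1A was still not among them. The largest rises were those of CD82 (log2 fold change 0.89), PLK3 (0.52), a stress-responsive kinase, and MDM2 (0.45). Smaller rises were called for TNFRSF10B, the DR5 death receptor gene (0.35), TIGAR (0.33), POLH (0.29), TRIAP1 (0.27), PLK2 (0.26), a further stress-responsive kinase, GADD45A, a growth arrest gene (0.24), and AEN, a nuclease of apoptotic cells (0.20). XPC, a damage sensor of excision repair, PPM1D, the WIP1 phosphatase that ends the response, ZMAT3, an RNA-binding protein, and PIDD1, a death domain protein, were higher by 0.20, 0.20, 0.20 and 0.16. FAS (-1.42), DDB2 (-0.49), ACER2, an alkaline ceramidase (-0.43), and CCNG1 (-0.16) were lower.

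**Figure D1:**
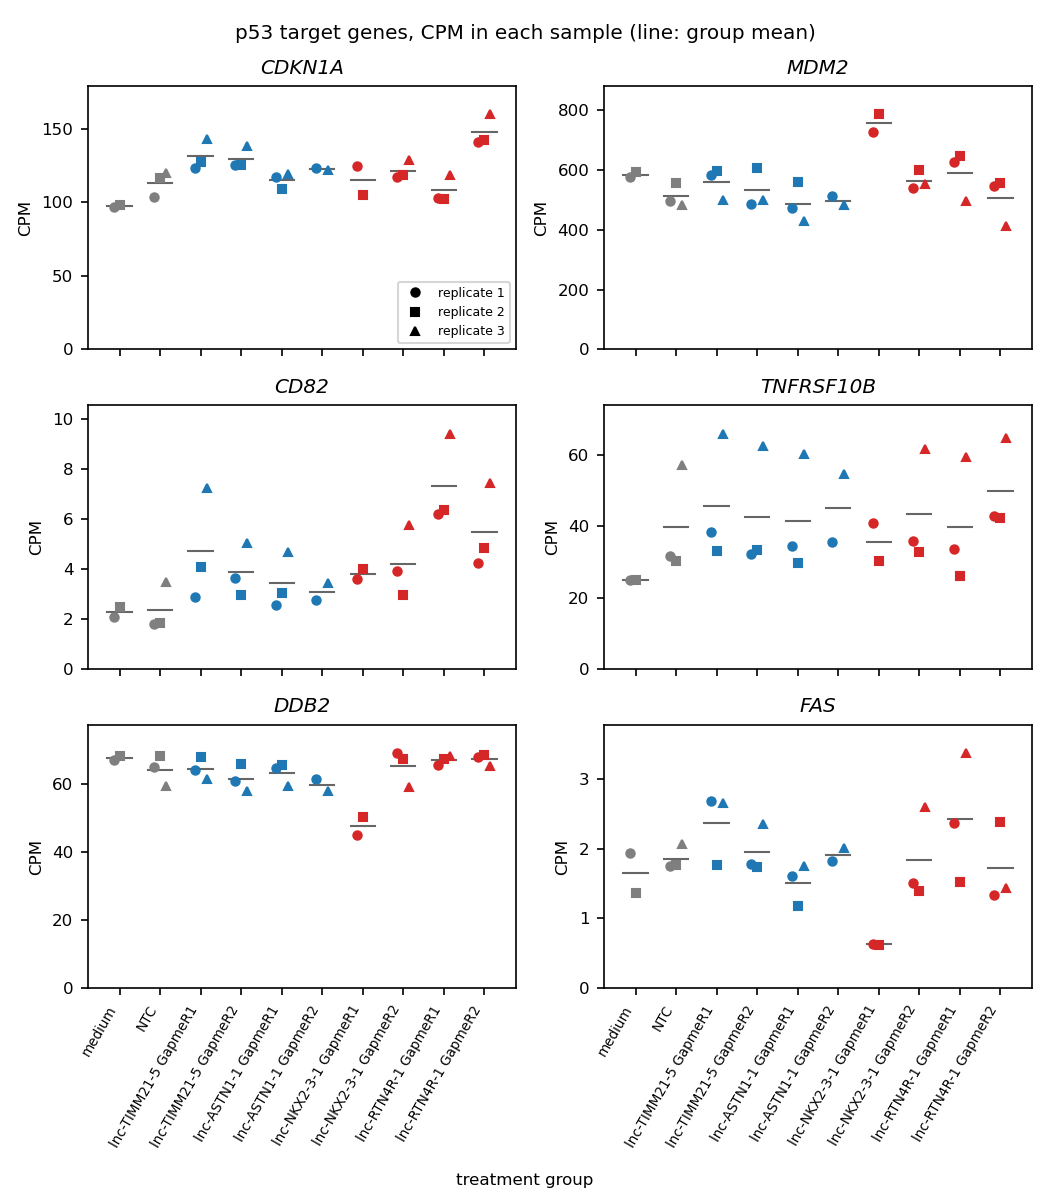
CPM of 6 p53 target genes in each of the 27 samples by treatment group, from 0 on a linear axis. Circles, squares and triangles are replicates 1, 2 and 3, grey points are controls, blue points the GapmeRs to lnc-ASTN1-1 or lnc-TIMM21-5, red points those to lnc-RTN4R-1 or lnc-NKX2-3-1, and lines are group means. MDM2 was highest and DDB2 and FAS lowest in both lnc-NKX2-3-1 GapmeR1 samples, CDKN1A was highest with lnc-RTN4R-1 GapmeR2, and TNFRSF10B was higher in every replicate 3 sample than in any other sample.

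lnc-NKX2-3-1 GapmeR2, aimed at the same lncRNA, gave 0 calls among p53 target genes and 0% over all genes tested. At an unadjusted p under 0.05 there were 8 p53 target genes and 615 genes in all (4.07%), and DESeq2 called 0 p53 target genes. MDM2 was at 540, 601 and 552 CPM, within the range of the controls. DDB2 (69.2, 67.5 and 59.3 CPM) and FAS (1.51, 1.39 and 2.59 CPM) also overlapped the controls. With the block, 7 were called where 2.72% of all genes were, 6 higher (1.44% of all genes) and 1 lower (1.28%). CD82 (log2 fold change 0.74), PLK2 (0.28), TP53INP1, a gene of p53-driven apoptosis (0.26), PPM1D (0.24), ZMAT3 (0.20) and CDKN1A (0.17) were higher, and CCNG1 was lower (-0.16).

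Both GapmeRs of lnc-NKX2-3-1 were also compared directly. GapmeR1 had higher MDM2 (log2 fold change 0.43, SE 0.0922, adjusted p = 0.0139) and lower DDB2 (-0.45, SE 0.104, adjusted p = 0.0184) and FAS (-1.51, SE 0.377, adjusted p = 0.027) than GapmeR2. These 3 of 31 stood where 13% of all genes were called. None of the 3 calls held when either GapmeR1 sample was left out, which leaves 1 sample in that arm, assumed to vary like the rest, and those of MDM2 and DDB2 were also lost without GapmeR2 replicate 1. With the block, which left 1 residual degree of freedom, 9 were called where 41.8% of all genes were. BTG2, an antiproliferative gene (0.56), MDM2, PLK3, RRM2B, a ribonucleotide reductase subunit (0.26), TRIAP1 and POLH were higher with GapmeR1, and FAS, DDB2 and SESN2 (-0.27) lower.

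With lnc-RTN4R-1 GapmeR2, 3 of 31 p53 target genes rose and 0 fell, where 6.62% of all genes were called (2.76% higher and 3.85% lower). They were CDKN1A, CD82 and ZMAT3. CDKN1A stood at 141, 142 and 159.8 CPM, above all controls (96.8 to 119.9). Its log2 fold change was 0.47 (SE 0.083, adjusted p = 0.00339, 1.38-fold). MDM2 in the same samples was at 546, 557 and 413 CPM and did not pass the test (log2 fold change -0.09, SE 0.104, adjusted p = 0.676). Without the block, the usual pair of p53 reporters was called in different comparisons, MDM2 with lnc-NKX2-3-1 GapmeR1 and CDKN1A with lnc-RTN4R-1 GapmeR2. With the block, CDKN1A was called higher in 4 of the 8 comparisons with the controls and MDM2 in 2 of the 8. The block called MDM2 with lnc-NKX2-3-1 GapmeR1 and lnc-RTN4R-1 GapmeR1, and CDKN1A with neither of them. Whether these calls reflect p53 activity was not tested.

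CD82 was at 4.23, 4.83 and 7.43 CPM with lnc-RTN4R-1 GapmeR2, against 2.10 and 2.47 in medium and 1.81, 1.82 and 3.47 with NTC. All 3 samples lay above the controls, at a log2 fold change of 1.23 (SE 0.236, adjusted p = 0.00578, 2.35-fold). With lnc-RTN4R-1 GapmeR1 it was at 6.19, 6.39 and 9.43 CPM, again above all controls, with a log2 fold change of 1.65 (SE 0.216, adjusted p = 0.00151, 3.13-fold). CD82 was the single p53 target gene called with GapmeR1, where 1.59% of all genes were called (1.01% higher and 0.579% lower). It rests on 29 to 182 counts per sample. CD82 was called in each of the 16 alternatives tried for each of both GapmeRs.

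ZMAT3 was at 51.5, 49.2 and 46.7 CPM with lnc-RTN4R-1 GapmeR2. Among the controls, NTC replicate 3 had 47.0 CPM and the others 32.6 to 35.1, so the groups overlapped. The log2 fold change was 0.42 (SE 0.107, adjusted p = 0.0314), and 9 of the alternatives ended the call, one of them NTC only as controls (adjusted p = 0.18).

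With the block, lnc-RTN4R-1 GapmeR2 had 11 p53 target genes higher and 0 lower, where 22.4% of all genes were called (12% higher and 10.4% lower). Beside CD82 (1.13), CDKN1A (0.44) and ZMAT3 (0.40), the rises were those of PHLDA3, an inhibitor of AKT signalling (0.55), TNFRSF10B (0.48), SESN1 (0.34), PLK2 (0.33), PLK3 (0.29), PIDD1 (0.24), TP53INP1 (0.20) and XPC (0.19). lnc-RTN4R-1 GapmeR1 had 8 higher and 1 lower, where 9.39% of all genes were called (5.97% higher and 3.42% lower). CD82 (1.56), TNFRSF10A (1.17), TP53INP1 (0.32), PLK2 (0.29), POLH (0.21), GADD45A (0.21), ZMAT3 (0.17) and MDM2 (0.16) were higher and CCNG1 lower (-0.12). CDKN1A did not pass with GapmeR1 in either fit (103, 102 and 119 CPM, log2 fold change 0.02, adjusted p = 0.98), and its sign turned with the block (-0.0099).

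In the direct comparison of the lnc-RTN4R-1 GapmeRs, 2 of 31 were called where 5.92% of all genes were. CDKN1A was lower with GapmeR1 than with GapmeR2, at a log2 fold change of -0.45 (SE 0.0828, adjusted p = 0.0132), and the samples did not overlap. It lost the call without GapmeR1 replicate 1 (adjusted p = 0.0768) or replicate 2 (0.0597). CMBL, a hydrolase gene, was at 2.78, 2.53 and 2.38 CPM with GapmeR1 and 3.71, 4.33 and 4.26 with GapmeR2 (log2 fold change -0.67, SE 0.168, adjusted p = 0.0468), and DESeq2 and every leave-out of 1 sample ended that call. CD82 did not differ between them past the threshold (0.42, SE 0.239, adjusted p = 0.367). With the block, 12 were called where 30.9% of all genes were.

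**Figure D2:**
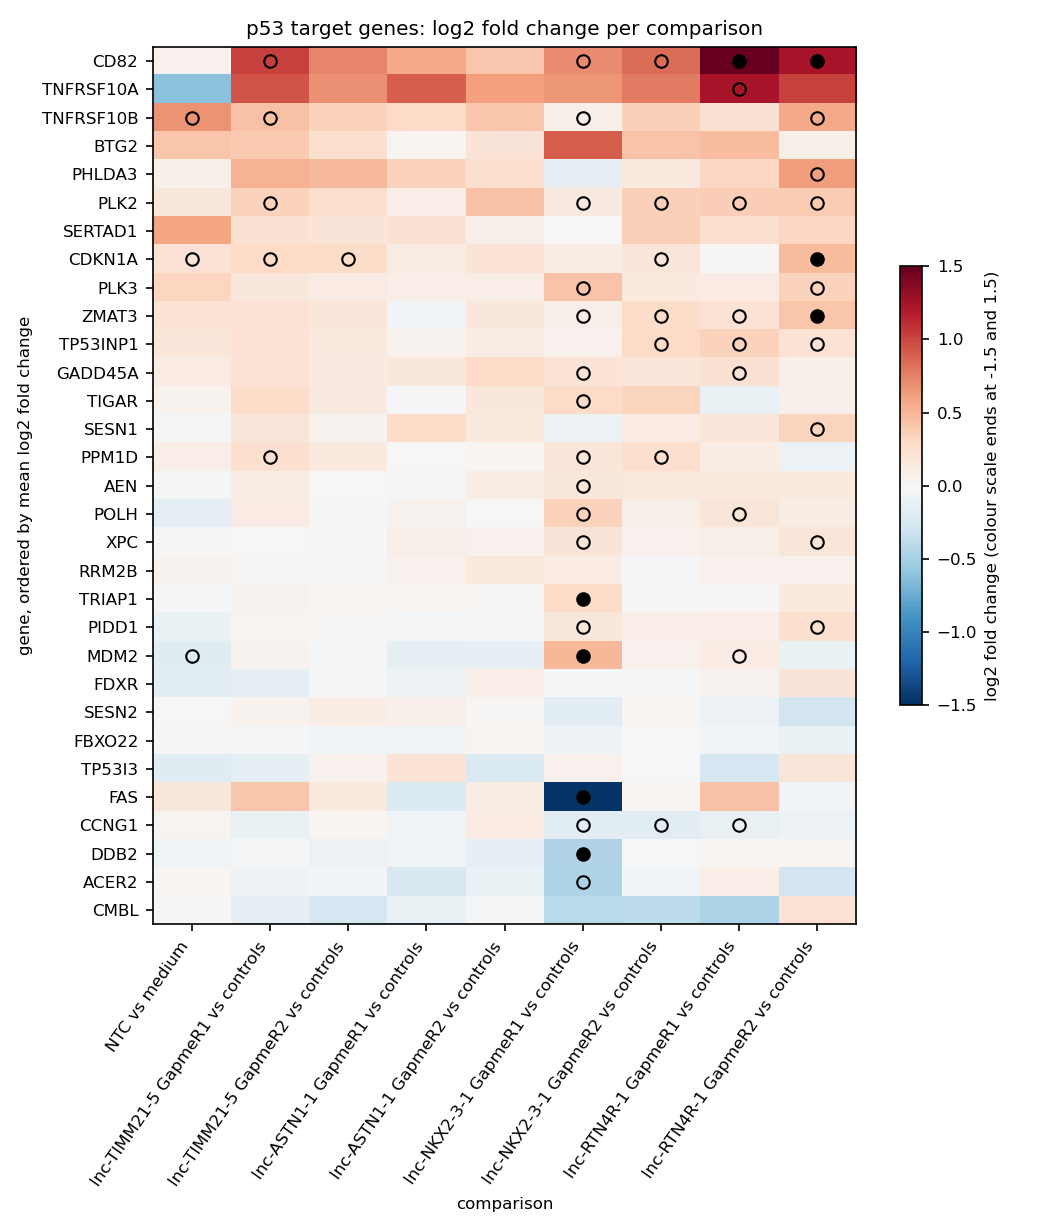
Log2 fold change of the 31 tested p53 target genes (rows, ordered by their mean) in 9 comparisons (columns), red for higher and blue for lower, with the colour scale ending at -1.5 and 1.5. Filled circles mark calls without the replicate block and open circles calls that needed it. CD82 and TNFRSF10A were among 10 genes above 0 in all 8 GapmeR comparisons, which share their controls, while FAS fell by 1.47 in 1 of them. The share of all genes above 0 in all 8 was not counted.

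The GapmeRs to lnc-ASTN1-1 or lnc-TIMM21-5 changed few genes. For lnc-TIMM21-5, 0 of 31 p53 target genes were called with either GapmeR, where 0.079% and 0.0593% of all genes were, and 5 and 3 had an unadjusted p under 0.05 (5.07% and 2.51% of all genes). For lnc-ASTN1-1 it was 0 of 31 with either, where 0.718% and 0.013% of all genes were called, and 2 and 1 had an unadjusted p under 0.05 (6.84% and 2% of all genes). DESeq2 also called 0 in all 4 comparisons. CDKN1A was at 123, 128 and 143 CPM with lnc-TIMM21-5 GapmeR1 and at 125.3, 125.4 and 138 with its GapmeR2, all above every control. The block gave CDKN1A log2 fold changes of 0.27 (SE 0.0445, adjusted p = 0.000367) and 0.26 (SE 0.0497, adjusted p = 0.0077). It gave 5 calls with lnc-TIMM21-5 GapmeR1 where 2.79% of all genes were called (1.44% higher and 1.35% lower). All 5 were higher, CD82 (0.86), TNFRSF10B (0.31), CDKN1A, PLK2 (0.26) and PPM1D (0.22). With GapmeR2 it called CDKN1A alone, where 0.33% of all genes were called (0.0396% higher and 0.29% lower). No p53 target gene was called for either lnc-ASTN1-1 GapmeR with the block, where 4.86% and 0.215% of all genes were.

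Between both lnc-TIMM21-5 GapmeRs 0 were called (0.0784% of all genes), and between both lnc-ASTN1-1 GapmeRs 0 (0.146%). At an unadjusted p under 0.05 these were 0 and 1 (1.63% and 3.1% of all genes), and DESeq2 called 0 in both. With the block 0 were called between the lnc-TIMM21-5 GapmeRs (0.503% of all genes). The block left 1 residual degree of freedom for lnc-ASTN1-1 and gave 3 calls where 4.29% of all genes were called. TP53I3, a p53-induced quinone reductase, was higher (0.45), and CCNG1 (-0.17) and MDM2 (-0.14) lower, with GapmeR1 than with GapmeR2.

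NTC and medium were compared to see what a GapmeR without a target does. No p53 target gene was called (0 of 31, and 0% of all genes), 3 and 670 (4.44%) had an unadjusted p under 0.05, and DESeq2 called 0 p53 target genes. TNFRSF10B was at 24.8 and 25.0 CPM in medium and 31.7, 30.2 and 57.1 with NTC, without overlap. The block, again with 1 residual degree of freedom, gave 3 calls where 1.53% of all genes were called (0.927% higher and 0.603% lower). CDKN1A (0.17) and TNFRSF10B (0.31) were higher and MDM2 (-0.15) lower with NTC. One fit of all samples with the block, an alternative chosen after seeing the data, gave 0 (0.0676% of all genes).

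Read against the background, p53 target genes were called in a share of 12.9% where 17.6% of all genes were (lnc-NKX2-3-1 GapmeR1), 9.68% where 6.62% were (lnc-RTN4R-1 GapmeR2) and 3.23% where 1.59% were (lnc-RTN4R-1 GapmeR1). With the block these shares were 58.1%, 35.5% and 29.0%, where 36.4%, 22.4% and 9.39% of all genes were called. In all, the 8 comparisons with the controls gave 8 calls in 248 tests of p53 target genes, on 7 genes. The share of all genes called was 0% to 17.6% per comparison. With the block there were 51 calls on 23 genes, 45 higher and 6 lower, where 0.215% to 36.4% of all genes were called. No share of all genes was pooled over the 8 comparisons. These totals therefore do not show whether p53 target genes moved apart from all genes. In one fit of all samples with the block, lnc-NKX2-3-1 GapmeR1 and GapmeR2 had 18 and 6 calls (35.5% and 2.24% of all genes), lnc-RTN4R-1 GapmeR1 and GapmeR2 8 and 14 (8.38% and 25.8%) and lnc-TIMM21-5 GapmeR1 and GapmeR2 4 and 2 (2.43% and 0.375%). The same fit gave 7 calls between the lnc-NKX2-3-1 GapmeRs (33.4%) and 9 between those to lnc-RTN4R-1 (26.3%). The median log2 fold change of the 31 genes ran from 0.05 (lnc-ASTN1-1 GapmeR1) to 0.18 (lnc-RTN4R-1 GapmeR2), and 18 to 25 of the 31 stood above 0, where 48.8% to 51.6% of all genes did. The 8 comparisons share their 5 controls, so these medians are not independent of each other.

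**Figure D3:**
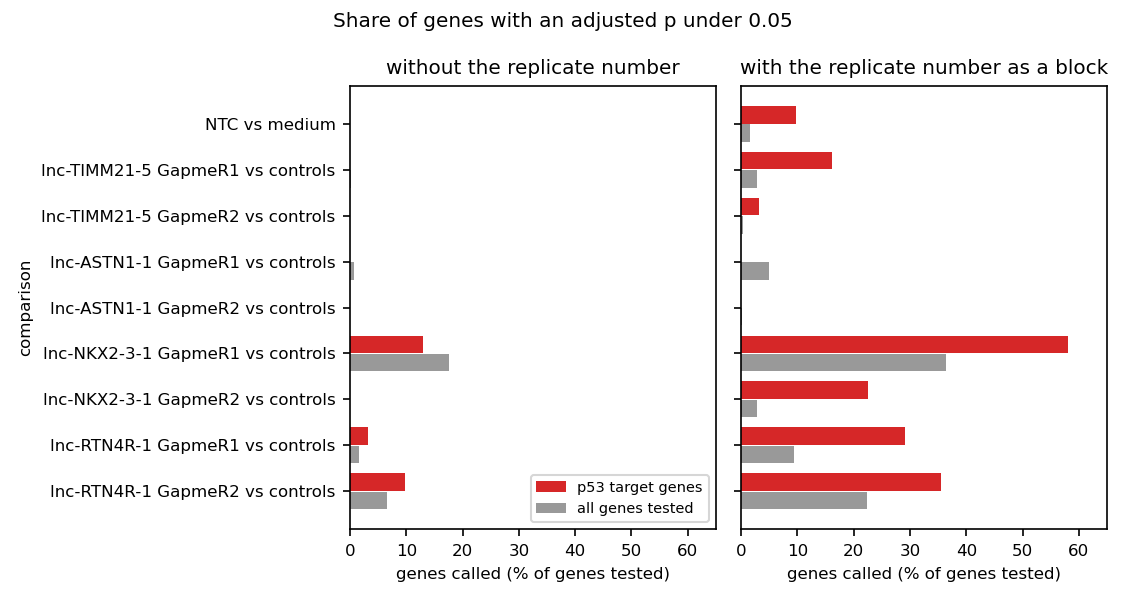
Share of genes with an adjusted p under 0.05, in % of genes tested, for the 31 p53 target genes (red bars) and all genes tested (grey bars) in 9 comparisons, without (left) and with (right) the replicate number as a block. Without the block the red bar exceeds the grey one for both lnc-RTN4R-1 GapmeRs, falls below it for lnc-NKX2-3-1 GapmeR1 and is at 0 in the other comparisons, and with the block it exceeds the grey bar everywhere but for both lnc-ASTN1-1 GapmeRs.

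Replicate 3 stood apart for 1 of these genes. TNFRSF10B was at 54.6 to 65.9 CPM in the 8 samples of replicate 3 and at 24.8 to 42.9 in the 19 samples of replicates 1 and 2. Among the 16268 genes tested over all samples, 1.85% lay wholly higher and 2.88% wholly lower in replicate 3. Medium and lnc-NKX2-3-1 GapmeR1 had no replicate 3, so in their comparisons treatment and replicate number cannot be fully told apart. With replicates 1 and 2 only, 6, 1 and 4 p53 target genes were called for lnc-NKX2-3-1 GapmeR1, lnc-RTN4R-1 GapmeR1 and lnc-RTN4R-1 GapmeR2, where 23.8%, 2.53% and 8.72% of all genes were.

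A single test of any difference among all 10 groups called 6 of 31 p53 target genes, where 16.1% of all genes were called. They were CDKN1A (adjusted p = 0.000705), DDB2 (0.00327), CD82 (0.0175), MDM2 (0.0251), FAS (0.0333) and PPM1D (0.0413). PPM1D ranged from 35.3 CPM in lnc-RTN4R-1 GapmeR2 replicate 1 to 50.9 in lnc-NKX2-3-1 GapmeR2 replicate 3. With the block 22 were called, where 48.6% of all genes were. Without replicate 1 there were 0 calls and without replicate 2 there was 1.

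Of the 31, 8 genes were called in no GapmeR comparison with the controls in either fit. They were BTG2, SESN2, RRM2B, FDXR, an electron carrier of mitochondria, TP53I3, SERTAD1, a cell cycle regulator, FBXO22, an F-box ubiquitin ligase subunit, and CMBL. How many of all genes were called in none of these comparisons was not counted. The number 8 therefore does not set p53 target genes apart from all genes. BTG2 had log2 fold changes of 0.05 to 0.91 in these comparisons, the highest with lnc-NKX2-3-1 GapmeR1, where it stood at 118 and 88.3 CPM against 26.8 to 69.3 in the controls. FBXO22 stayed between -0.10 and 0.05.

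Genes that act on p53 were followed as well. Of 20 p53 regulators, 18 were tested, and with lnc-NKX2-3-1 GapmeR1 2 rose and 2 fell, with lnc-RTN4R-1 GapmeR2 0 rose and 2 fell, and in the other 6 comparisons with the controls 0 passed (17.6% and 6.62% of all genes were called with the first 2, and at most 1.59% with the others). With the block, 6 rose and 5 fell with lnc-NKX2-3-1 GapmeR1 (36.4% of all genes were called) and 2 rose and 5 fell with lnc-RTN4R-1 GapmeR2 (22.4%). It also gave 1 lower with lnc-NKX2-3-1 GapmeR2 (2.72%), 1 higher with lnc-RTN4R-1 GapmeR1 (9.39%) and 1 in each direction with lnc-ASTN1-1 GapmeR1 (4.86%). Without the block, 1 of the genes that fell with lnc-RTN4R-1 GapmeR2 was TP63, a gene of the p53 family (-0.59, SE 0.152, adjusted p = 0.0332), named after its value was seen. TP63 holds a run of 12 paired bases for that GapmeR in an intron, and 1.55% of all genes held a run of at least 12.

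MDM4, the partner of MDM2 that blocks p53 activity, moved in opposite directions. It was at 219.7 and 212 CPM with lnc-NKX2-3-1 GapmeR1 and at 118, 98.4 and 109 with lnc-RTN4R-1 GapmeR2, against 136 to 155 in the controls. Neither group overlapped the controls, and the log2 fold changes were 0.57 (SE 0.0703, adjusted p = 0.000101) and -0.42 (SE 0.074, adjusted p = 0.00315). It also differed between both GapmeRs of lnc-NKX2-3-1 (0.53, adjusted p = 0.00376) and of lnc-RTN4R-1 (0.54, adjusted p = 0.00615).

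ATM, the kinase that signals double-strand breaks to p53, was at 119 and 117 CPM with lnc-NKX2-3-1 GapmeR1, against 196 to 238 in the controls. The log2 fold change was -0.85 (SE 0.0839, adjusted p = 1.6e-05, 0.556-fold), and against GapmeR2 it was -0.91 (adjusted p = 0.000282). HIPK2, a kinase that phosphorylates p53 in cell death, was at 112 and 111 CPM against 158 to 200 (log2 fold change -0.62, SE 0.0948, adjusted p = 0.000554). DYRK2, another p53 kinase, was at 141 and 139 CPM against 104 to 126 (log2 fold change 0.29, SE 0.0824, adjusted p = 0.0281). None of these 3 genes nor MDM4 held a run of 12 paired bases for either lnc-NKX2-3-1 GapmeR.

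**Figure D4:**
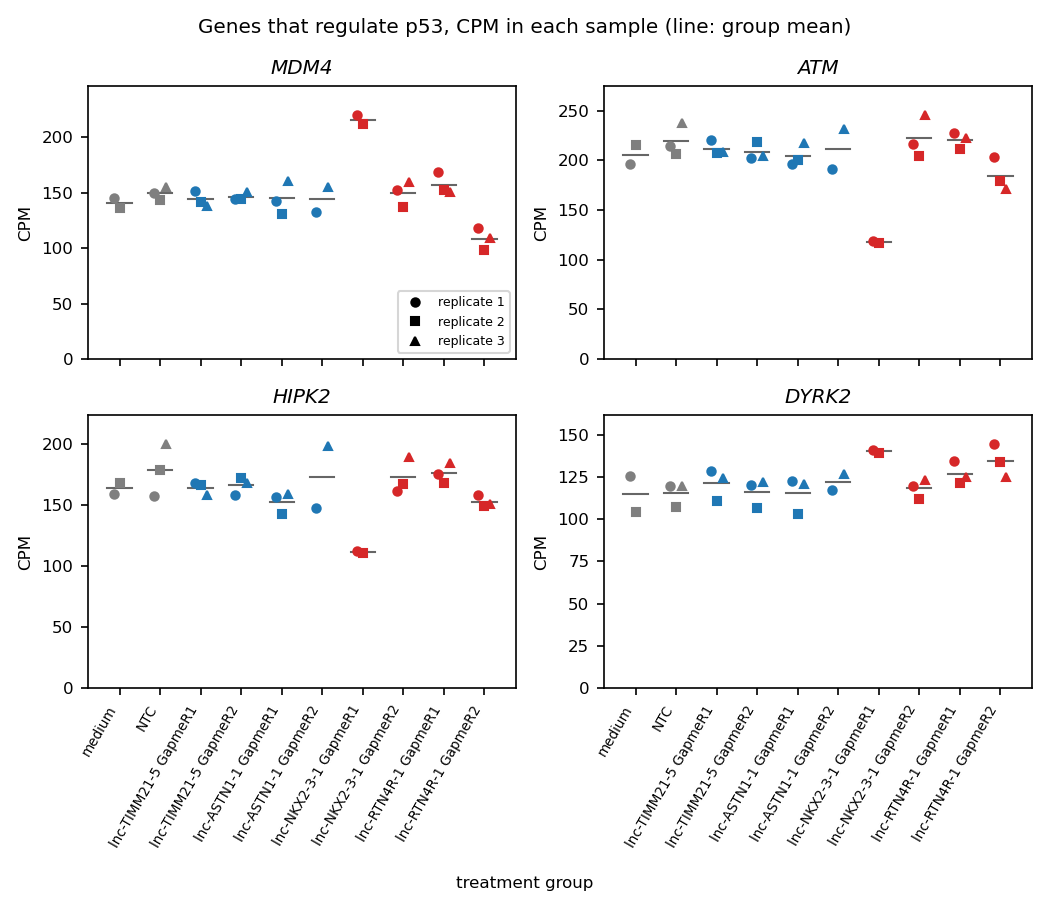
CPM of 4 genes that regulate p53 in each of the 27 samples by treatment group, from 0 on a linear axis, with symbols, colours and lines as in the plot of p53 target genes by sample. MDM4 is highest with lnc-NKX2-3-1 GapmeR1 and lowest with lnc-RTN4R-1 GapmeR2, ATM and HIPK2 are lowest in both lnc-NKX2-3-1 GapmeR1 samples, and DYRK2 lies above all controls in both.

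A second list of 28 p53 target genes, of which 21 were tested, had 4 genes higher and 3 lower with lnc-NKX2-3-1 GapmeR1 and 3 higher and 0 lower with lnc-RTN4R-1 GapmeR2. It had 1 higher with lnc-RTN4R-1 GapmeR1 and 0 called in the other 5 comparisons with the controls. Of all genes, 17.6%, 6.62% and 1.59% were called with these 3 GapmeRs. With the block the counts were 7 higher and 3 lower with lnc-NKX2-3-1 GapmeR1 (36.4% of all genes), 8 and 3 with lnc-RTN4R-1 GapmeR2 (22.4%), 5 and 0 with its GapmeR1 (9.39%), 2 and 0 with lnc-NKX2-3-1 GapmeR2 (2.72%), 2 and 0 with lnc-TIMM21-5 GapmeR1 (2.79%) and 2 and 2 with lnc-ASTN1-1 GapmeR1 (4.86%). IER5, an immediate early response gene, rose with lnc-NKX2-3-1 GapmeR1 (0.71, SE 0.119, adjusted p = 0.00116) and with lnc-RTN4R-1 GapmeR2 (0.62, SE 0.102, adjusted p = 0.00182). Its group means lay between 17.6 and 22.6 CPM with all 8 GapmeRs, against 13.9 in the controls, and the block also called it higher with lnc-NKX2-3-1 GapmeR2 (0.43), lnc-RTN4R-1 GapmeR1 (0.38), lnc-TIMM21-5 GapmeR1 (0.50) and lnc-ASTN1-1 GapmeR1 (0.43). E2F7, a repressor of cell cycle genes, rose with lnc-NKX2-3-1 GapmeR1 (0.46, adjusted p = 0.00163), and CYFIP2, an actin regulator, and FUCA1, a lysosomal fucosidase, fell (-0.48, adjusted p = 0.00373, and -0.53, adjusted p = 0.00539). The median log2 fold change of the list was 0.07 with lnc-NKX2-3-1 GapmeR1 and 0.10 with lnc-RTN4R-1 GapmeR2, and also 0.10 for NTC against medium.

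Active p53 lowers cell cycle genes through CDKN1A and the DREAM repressor complex. Of 15 such genes, 8 rose and 0 fell with lnc-NKX2-3-1 GapmeR1, where 7.41% of all genes were called higher, at a median log2 fold change of 0.27. BUB1, a mitotic checkpoint kinase (0.51, SE 0.0875, adjusted p = 0.00135), BIRC5 or survivin (0.39), AURKB, the Aurora B kinase (0.31), and TOP2A, a DNA topoisomerase (0.31), were among them. The block gave 12 higher (18.4% of all genes) and 1 lower, AURKA, the Aurora A kinase (-0.22). With lnc-RTN4R-1 GapmeR1 1 rose (1.01% of all genes), and 9 with the block (5.97%). In the other 6 comparisons with the controls 0 passed, and the block gave 1 in each direction with lnc-RTN4R-1 GapmeR2 (12% higher and 10.4% lower over all genes) and 1 higher with lnc-TIMM21-5 GapmeR1 (1.44%).

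The integrated stress response, a response to amino acid shortage and unfolded proteins, can also raise SESN2, TNFRSF10B and other members. Of its 12 listed genes, 1 rose and 2 fell with lnc-NKX2-3-1 GapmeR1, 1 fell with lnc-RTN4R-1 GapmeR2 and 1 fell with lnc-ASTN1-1 GapmeR1, where 17.6%, 6.62% and 0.718% of all genes were called. With the block the counts were 1 higher and 3 lower with lnc-NKX2-3-1 GapmeR1 (36.4% of all genes), 1 and 3 with lnc-RTN4R-1 GapmeR1 (9.39%), 0 and 1 with its GapmeR2 (22.4%), 0 and 1 with lnc-NKX2-3-1 GapmeR2 (2.72%) and 2 and 1 with lnc-ASTN1-1 GapmeR1 (4.86%). VLDLR, a lipoprotein receptor, rose (1.15, SE 0.211, adjusted p = 0.00228) and ASNS, asparagine synthetase, fell (-0.39, adjusted p = 0.0477) with lnc-NKX2-3-1 GapmeR1. SLC7A11, the cystine transporter, fell with all 3 (-0.42, -0.42 and -0.71). It holds an intronic run of 12 paired bases for lnc-ASTN1-1 GapmeR1, for which 2.11% of all genes held a run of at least 12. No such run was found in it for lnc-NKX2-3-1 GapmeR1 or lnc-RTN4R-1 GapmeR2. HIPK2 and NINJ1 also hold a run of 12 for lnc-ASTN1-1 GapmeR1. Neither was called without the block, and with the block HIPK2 was lower (-0.20). CYFIP2 holds one for lnc-RTN4R-1 GapmeR1 and was higher with the block (0.14). The part of pairing in these values was not tested. Between NTC and medium 0 passed, and with the block, which left 1 residual degree of freedom, 6 of 12 were higher with NTC, where 0.927% of all genes were.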

How the data were processed

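RNA was sequenced from 27 samples of REH cells in 10 groups. The deposited values are raw gene counts, which the authors made by aligning reads to hg38 with STAR, in 3 columns per sample (unstranded and both strand orientations). Column 4 was used, since it held 95.2% to 95.4% of both strand columns, and 74.9% to 77.9% of mapped reads were counted. The annotation release was not given in the sources used here. The labels describe ribodepleted stranded RNA, the methods poly-A RNA. Depth was 14627110 to 22750945 counts per sample, and replicate p-values measure the spread between treatments of 1 cell line.

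Groups came from the labels. The 33 p53 target genes and the other lists were chosen with earlier results of these data known. Symbols, exon lengths and coordinates (GRCh38) were taken from GENCODE v44, GapmeR sequences from the study's supplementary table, and promoters from RefSeq (GRCh38.p14). The test was edgeR's (4.0.16) robust quasi-likelihood F test with TMM in R 4.3.3, after filterByExpr (minimum count 10, total 15), each comparison on its own samples. P-values were adjusted by Benjamini-Hochberg over all genes tested and called under 0.05. The study used DESeq2, here an alternative (1.42.0). CPM used TMM library sizes from all samples. SE is the absolute log2 fold change over the root of F. The fits were tested on simulated data.

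The text describes CDKN1A and MDM2 always, other p53 target genes where called, and at most 4 genes of each further list. The other alternatives were RLE size factors, no count filter, the replicate block, one fit of all samples, NTC only as controls, replicates 1 and 2 only, and each sample left out. Per the methods, replicates were done on separate days, so the replicate number was taken to pair samples. The mean correlation of samples' deviations from their group mean was 0.263 over 109 same-number pairs (lowest -0.0349, 94 over 0.1) and -0.130 over 218 different-number pairs. All 24 within-group pairs differed by more than sampling noise (chi-square per degree of freedom 3.45 to 17.4).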

Additional observations from a re-analysis of the deposited data

Results flagged for a closer look

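In 2 of the 31 p53 target genes tested for it, 1 control sample stood apart from the other 4, where chance alone gives about 1 in 20. Both were NTC replicate 3, with TNFRSF10B at 57.1 CPM (the others 24.8 to 31.7) and ZMAT3 at 47.0 CPM (the others 32.6 to 35.1). NTC replicate 3 is the single control with that replicate number, and TNFRSF10B was above every replicate 1 and 2 sample in all 8 samples of replicate 3.

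Both GapmeRs of a lncRNA differed past the threshold for 5 p53 target genes. For lnc-NKX2-3-1, GapmeR1 against GapmeR2 gave log2 fold changes of -0.45 for DDB2, -1.51 for FAS and 0.43 for MDM2. In that comparison 13% of all genes were called. For lnc-RTN4R-1 the log2 fold changes were -0.67 for CMBL and -0.45 for CDKN1A, where 5.92% of all genes were called.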

How the results depend on the processing

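Counts of p53 target genes called rest on 2 to 3 samples per GapmeR and moved most with the replicate number as a block. The block gave 18 (lnc-NKX2-3-1 GapmeR1), 7 (its GapmeR2), 9 and 11 (lnc-RTN4R-1 GapmeR1 and GapmeR2), 5 and 1 (lnc-TIMM21-5 GapmeR1 and GapmeR2) against the controls, 3 for NTC against medium, 3 between both GapmeRs of lnc-ASTN1-1, 12 between those to lnc-RTN4R-1, 9 between those to lnc-NKX2-3-1 and 22 over all 10 groups, in place of 4, 0, 1, 3, 0, 0, 0, 0, 2, 3 and 6. With the block, no call was made for lnc-ASTN1-1 against the controls or between both lnc-TIMM21-5 GapmeRs, as without it. In one fit of all samples with the block, chosen after seeing the data, the counts were 18, 6, 8, 14, 4 and 2 against the controls and 7 and 9 between both lnc-NKX2-3-1 and both lnc-RTN4R-1 GapmeRs. Without the count filter they were 7 (lnc-NKX2-3-1 GapmeR1), 3 and 5 (lnc-RTN4R-1 GapmeR1 and GapmeR2), 1 (lnc-TIMM21-5 GapmeR1), 5 (both lnc-NKX2-3-1 GapmeRs) and 12 (all 10 groups). DESeq2 gave 1, and replicates 1 and 2 only gave 4, between both lnc-RTN4R-1 GapmeRs. Beyond the replicate block, the cause of these moves was not tested.

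With 1 sample left out at a time, counts ran from 2 to 6 for lnc-NKX2-3-1 GapmeR1 (2 without its replicate 2), 2 to 5 for lnc-RTN4R-1 GapmeR2 (5 without NTC replicate 3), 1 to 1 for its GapmeR1, 0 to 1 for NTC against medium (1 without medium replicate 1), 0 to 4 between both lnc-NKX2-3-1 GapmeRs (0 without either GapmeR1 sample), 0 to 1 between both lnc-RTN4R-1 GapmeRs and 0 to 0 in the other comparisons of 2 groups. Over all 10 groups they were 0 without replicate 1 and 1 without replicate 2. RLE size factors gave counts within 1.5 times in every comparison. The counts without the count filter and with a sample left out are given without the share of all genes called in the same fits. They therefore do not show whether p53 target genes moved apart from all genes.

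Signs turned only in values that no fit called. CDKN1A with lnc-RTN4R-1 GapmeR1 (0.02) was -0.0099 with the block, -0.0033 in one fit with the block, -0.066 with NTC only, -0.0062 with replicates 1 and 2 only, and -0.051 to 0.062 with a sample left out. CDKN1A with lnc-NKX2-3-1 GapmeR1 (0.11) was -0.014 to 0.23 with a sample left out, and MDM2 with lnc-RTN4R-1 GapmeR2 (-0.09) -0.17 to 0.021. MDM2 with lnc-TIMM21-5 GapmeR2 (-0.02) was 0.0022 in one fit with the block, 0.052 with NTC only, and -0.13 to 0.034 with a sample left out. Depth limits FAS (12 to 65 counts) and TNFRSF10A (3 to 35) most.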
